A study of Mus musculus with 9 samples.

Results

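Ifit1, Ifit2, Ifit3, Rsad2 and Cmpk2 are antiviral genes that type I interferon switches on, and they were followed here in mouse bone marrow-derived macrophages (BMDMs) given tenascin C (TNC), with and without a blocker of its receptor TLR4. The 5 genes were selected by their symbols, after their differences between all 3 groups of these arrays were known. They were read from the 8 probe sets that the platform annotation assigns to only 1 of these genes, out of 45037 probe sets and 18193 genes named in this way. Their differences between groups are therefore given as a description, with no p-value, and counts of calls among them support nothing.

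BMDMs were grown from BALB/c marrow for 7 days in macrophage colony-stimulating factor and held overnight in 1% serum. Per the study's methods the mice were 8 to 10 weeks old. The TNC + TLR4i group was pretreated for 1 h with TAK-242 at 3 µM, a small compound that attaches to the intracellular part of TLR4 and blocks its signal, and then received 2 µg/ml recombinant TNC, an extracellular matrix glycoprotein, for 6 h. The TNC + vehicle group received 0.1% DMSO for 1 h before the same TNC, and the untreated group has no addition in its labels. Each group had 3 arrays, called biological replicates without a statement of whether they came from separate mice, so the p-values below measure only the spread between these samples. The labels name no arrays given only vehicle or only the inhibitor, and none that control for endotoxin. In TNC + vehicle against untreated, TNC therefore cannot be told apart from vehicle or from any endotoxin that came with it. In TNC + TLR4i against untreated, the inhibitor cannot be told apart from TNC or from any vehicle given with it.

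TLR4 can signal from endosomes through the adaptor TRIF (gene Ticam1) and the transcription factor IRF3 to the gene of interferon beta. Secreted interferon binds its receptor, and a complex that holds STAT2 and IRF9 then moves to the nucleus and switches on a large set of antiviral genes, with the Ifit genes among the strongest. IRF3 can also switch on some Ifit genes directly.

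The DNA element that the STAT and IRF complex binds carries the core GAAANNGAAA, and it was looked for on both strands from 250 bases before to 50 bases after each RefSeq start site (GRCm38.p6). Of 27025 genes with such a window, 1079 (3.99%) held the core. It was found in 3 of the 5 genes, and the stretches around the matches are shown because all 5 genes had the same order of groups on the arrays. Each is written 5′ to 3′ along the strand of the gene, with the matches in capitals, which here read as the reverse complement of the core.
Ifit1 (chr19:34640760-34640838, plus strand): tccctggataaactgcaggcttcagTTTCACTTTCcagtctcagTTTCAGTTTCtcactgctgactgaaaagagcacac
Ifit3 (chr19:34583348-34583441, plus strand): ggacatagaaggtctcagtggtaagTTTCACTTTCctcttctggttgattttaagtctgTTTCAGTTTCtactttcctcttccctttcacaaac
Rsad2 (chr12:26456538-26456597, minus strand): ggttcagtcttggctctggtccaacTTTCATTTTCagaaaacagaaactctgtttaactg
The matches began 104 and 85 bases before the start site of Ifit1, 156 and 122 bases before that of Ifit3 and 120 bases before that of Rsad2. Ifit1 and Ifit3 held the same pair of matched letters, in the same order. The windows of Ifit2 and Cmpk2 did not hold these letters, which says nothing of the factors that act on them. Of the other interferon genes listed for this work, 81 had a window and 28 of these (34.6%) held the core.

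The genes lie in 2 groups on the chromosomes. Ifit2, Ifit3 and Ifit1 stand within 99460 bases of chromosome 19. Rsad2 and Cmpk2 stand on chromosome 12, where they point away from each other with start sites 12763 bases apart. Ifit1 also shares upstream sequence with the related gene Ifit1bl2, which points the other way from a start site 146 bases away. The windows around these start sites hold the same pair of matches. Another start site of Ifit1bl2 had a window with 0 matches, and the annotated span of Ifit1bl2 reaches over the matches.

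Each of the 5 genes was highest in TNC + vehicle, intermediate in untreated cells and lowest in TNC + TLR4i. Ifit1 encodes a protein that binds viral RNA lacking the methyl mark of host caps and keeps it from being translated. Its log2 signal was 8.71, 9.39 and 8.89 in TNC + TLR4i replicates 1, 2 and 3, against 12.82, 12.89 and 12.87 in TNC + vehicle and 9.88, 10.64 and 10.43 in untreated cells. The 3 groups did not overlap. A log2 difference of 1 is a doubling. For Ifit1 it was 2.55 ± 0.15 (SE, n = 3 arrays per group, as for all differences here) in TNC + vehicle against untreated, a 5.85-fold higher signal, and -3.87 ± 0.13 in TNC + TLR4i against TNC + vehicle, a 14.6-fold lower one. With the inhibitor Ifit1 lay 1.32 ± 0.18 log2 units below untreated cells, at 40.1% of their signal.

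Ifit2 encodes a relative of Ifit1 that restricts several RNA viruses in mice. It gave 9.48, 10.09 and 9.84 in TNC + TLR4i, against 13.41, 13.56 and 13.62 in TNC + vehicle and 10.52, 11.59 and 11.28 in untreated cells. Its untreated arrays spanned 1.07 log2 units, the widest range of the 8 probe sets, and still lay apart from both other groups. The differences were 2.40 ± 0.20 in TNC + vehicle against untreated, -3.73 ± 0.13 in TNC + TLR4i against TNC + vehicle and -1.33 ± 0.21 in TNC + TLR4i against untreated.

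Ifit3, whose human counterpart binds IFIT1 and stabilises its hold on RNA, gave 9.12, 9.69 and 9.18 in TNC + TLR4i, against 12.66, 12.81 and 12.95 in TNC + vehicle and 10.00, 10.75 and 10.51 in untreated cells. It was ordered like the others, and its gap between the highest TNC + TLR4i and the lowest untreated array was the narrowest, 0.31 log2 units. Its differences were 2.39 ± 0.15, -3.48 ± 0.13 and -1.09 ± 0.17 in the same 3 comparisons. Ifit3 has a near-identical copy, Ifit3b, and the windows of both around their start sites share a run of 169 identical bases. Ifit3b has no probe set of its own here, so the Ifit3 signal may hold both.

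The genes of the enzymes showed the same order of groups. Rsad2 encodes viperin, which turns the nucleotide CTP into a form that ends viral RNA chains. On its brightest probe set it gave 9.78, 10.23 and 9.68 in TNC + TLR4i, against 13.63, 13.76 and 13.82 in TNC + vehicle and 10.69, 11.45 and 11.27 in untreated cells. It was measured by 3 probe sets, and no group overlapped another on any of them. The size of the differences depended on the probe set: TNC + vehicle minus untreated was 2.60 ± 0.15 on the brightest and 3.18 ± 0.17 and 3.40 ± 0.17 on the others, while TNC + TLR4i minus TNC + vehicle was -3.84 ± 0.12, -4.42 ± 0.09 and -4.63 ± 0.09. TNC + TLR4i minus untreated was -1.24 on each of the 3.

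Cmpk2 encodes a mitochondrial kinase that makes the precursors of CTP and is the chromosomal neighbour of Rsad2. Its brightest probe set gave 8.27, 8.63 and 8.47 in TNC + TLR4i, against 12.21, 12.33 and 12.41 in TNC + vehicle and 9.13, 9.90 and 9.74 in untreated cells. Its other probe set gave 8.09, 8.44 and 8.05 in TNC + TLR4i, against 11.22, 11.44 and 11.52 in TNC + vehicle and 8.81, 9.21 and 9.02 in untreated cells. The groups stood apart on both, but the second showed smaller steps. TNC + vehicle minus untreated was 2.72 ± 0.15 on the first and 2.38 ± 0.11 on the second, TNC + TLR4i minus TNC + vehicle was -3.86 ± 0.09 and -3.20 ± 0.11, and TNC + TLR4i minus untreated was -1.14 ± 0.16 and -0.82 ± 0.11. Names of both probe sets end in _a_at, which marks probes shared by transcripts of 1 gene.

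**Figure D1:**
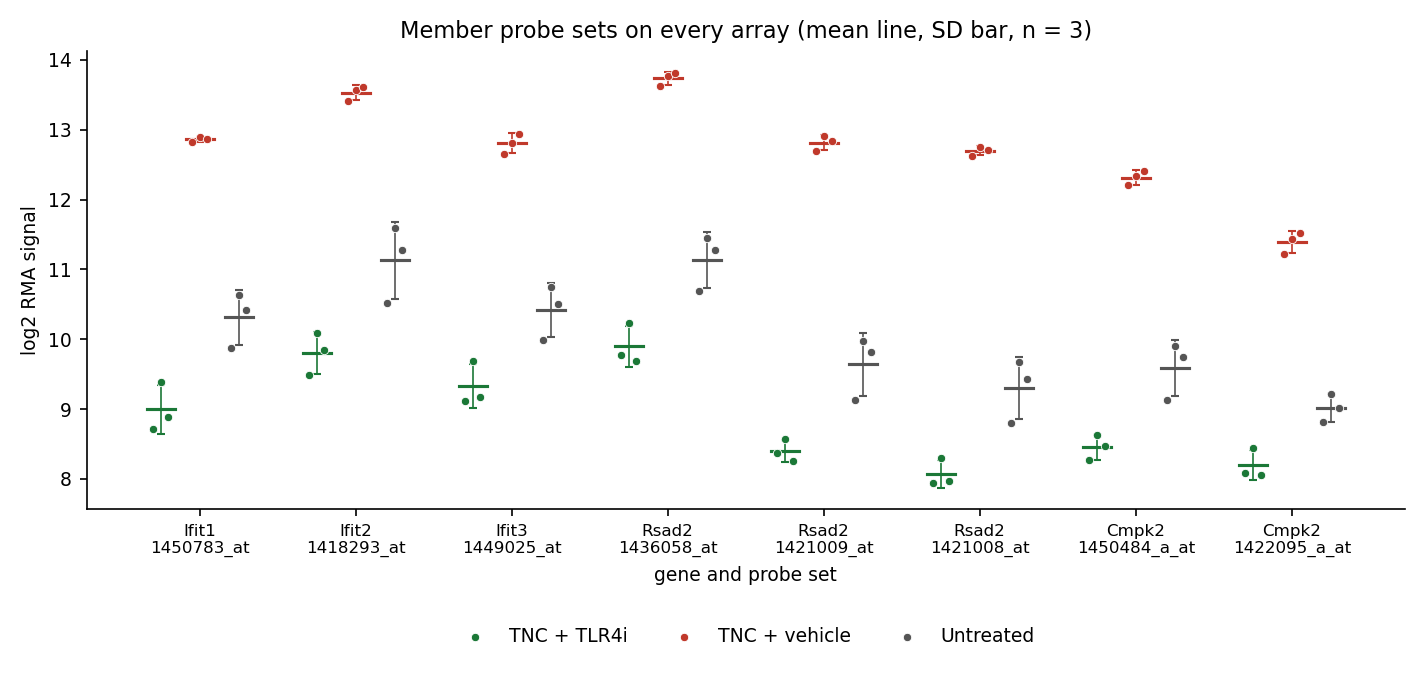
Log2 RMA signal (y axis) of the 8 probe sets of Ifit1, Ifit2, Ifit3, Rsad2 and Cmpk2 (x axis), with a point per array, a line at the mean and a bar for the SD of TNC + TLR4i, TNC + vehicle and untreated BMDMs. On every probe set the TNC + vehicle arrays lie highest and close together and the TNC + TLR4i arrays lie below the untreated ones without overlap.

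Over the 8 probe sets the signal in TNC + vehicle was 5.19-fold to 10.5-fold above that of untreated cells, and it was 9.16-fold to 24.8-fold lower in TNC + TLR4i than in TNC + vehicle. With TLR4i it stood at 39.8% to 56.7% of the untreated signal. Because the arrays measure bulk RNA and were scaled to 1 common distribution, fewer cells of a type and less RNA per cell cannot be told apart. All groups of all 8 probe sets lay apart in this order, and so did 2.09% of all genes.

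Genes, each read from its brightest probe set, were called where limma gave an adjusted p under 0.05 and the change reached 1.5-fold. In TNC + vehicle against untreated, 3.74% of the 18193 genes were called higher, 4.05% were called lower, and 5 of the 5 members were called higher. For TNC + TLR4i against TNC + vehicle, 4.25% were called higher, 4.05% were called lower, and 5 of 5 were called lower. Between TNC + TLR4i and untreated cells, 0.0605% were called higher, 0.198% were called lower, and 5 of 5 were called lower. The members were chosen on these contrasts, so nothing is read from these counts.

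The place of the members among all genes was not the same in the 3 comparisons. Ranked by log2 difference, they stood at places 28 to 43 from the highest in TNC + vehicle against untreated, and at places 17 to 28 from the lowest in TNC + TLR4i against TNC + vehicle. Set against untreated cells, TNC + TLR4i had Ifit2 as the lowest of all genes, followed by Ifit1 and Rsad2, and Cmpk2 and Ifit3 stood at places 5 and 6. Iigp1, an interferon-inducible GTPase that acts on parasite vacuoles, lay between Rsad2 and Cmpk2. These places rest on the brightest probe set of each gene. On its other probe set Cmpk2 gave -0.82, less far below untreated cells than Gbp3 (-0.92) and Mx1 (-0.85). The members were chosen with these differences known, so their places are not a result. A total of 36 genes were called lower in TNC + TLR4i against untreated and 11 higher. The total of 47 changed with single arrays and settings: it was 31 without TNC + TLR4i replicate 1, 31 without untreated replicate 3, and 31 with limma's trend and robust settings. With those settings 0 of the 5 members were called, and 3 of 5 (Ifit1, Rsad2 and Cmpk2) were called without TNC + TLR4i replicate 1, without TNC + TLR4i replicate 3 or without untreated replicate 3.

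**Figure D2:**
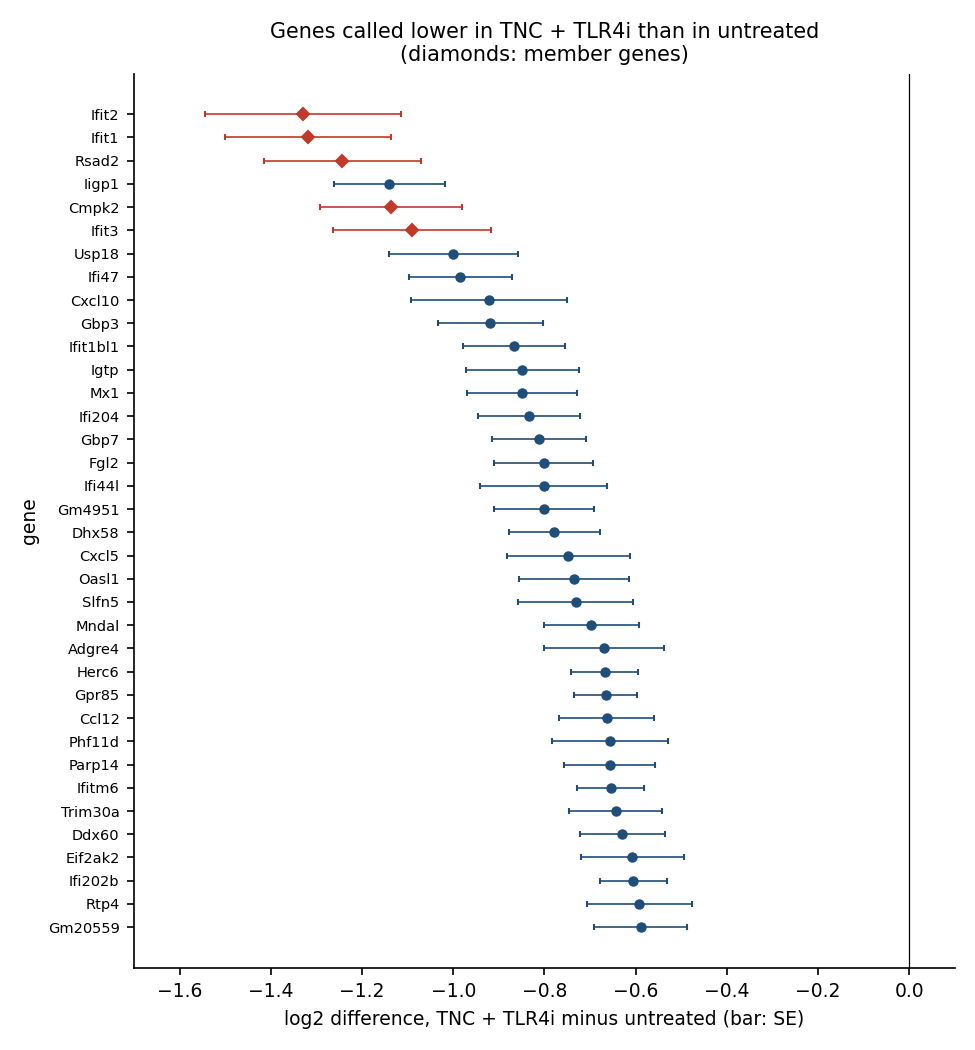
Log2 difference of TNC + TLR4i minus untreated (x axis, bars are SE) for the 36 genes called lower in that comparison (y axis), with Ifit1, Ifit2, Ifit3, Rsad2 and Cmpk2 as diamonds. Read from their brightest probe sets, the 5 diamonds lie between -1.33 and -1.09, within the lowest 6 genes, and their SE bars are among the longest.

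Those bars follow the spread between replicates, which was wide for the members in untreated and TNC + TLR4i cells. In untreated cells the SDs of the 5 genes ran from 0.39 to 0.55, against a median of 0.073 over all genes, and ranked 7 to 18 from the widest of 18193. With TLR4i they ran from 0.18 to 0.35, against a median of 0.076. There Ifit1, Ifit3, Ifit2 and Rsad2 ranked 15, 33, 40 and 53 from the widest, while Cmpk2 ranked 979. In TNC + vehicle, where the signals were highest, the SDs ran from 0.035 to 0.15, against a median of 0.085, and were not among the widest. Outside the members, 57 listed interferon genes were called higher in TNC + vehicle than in untreated. Their median SD was 0.199 in untreated cells, with a highest of 0.525, and 0.132 with TLR4i, with a highest of 0.291. In both groups their SDs overlapped those of the members.

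The spread was shared by the members. In untreated cells replicate 1 was the lowest for 5 of 5 genes, by 0.42 to 0.61 below the group mean, and replicate 2 was the highest for 5 of 5, by 0.31 to 0.46 above it. With the inhibitor replicate 2 was the highest for 5 of 5, by 0.17 to 0.39, and replicate 1 the lowest for 4 of 5. In TNC + vehicle replicate 1 was the lowest for 5 of 5, by at most 0.15. Across the 9 arrays the deviations from the group means correlated at r = 0.91 to 0.99 in the 10 pairs of members, which is a description of points that share their arrays and their normalization.

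**Figure D3:**
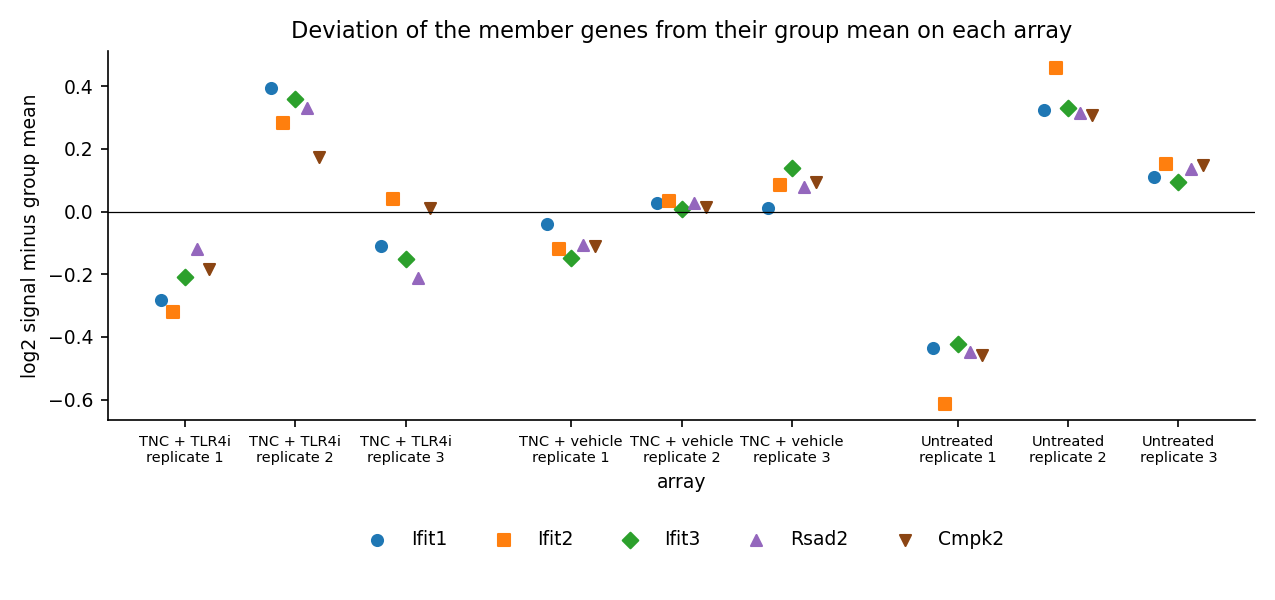
Deviation of the log2 signal from the group mean (y axis) for Ifit1, Ifit2, Ifit3, Rsad2 and Cmpk2 on each of the 9 arrays (x axis), by group. The symbols of an array lie close together, from -0.61 to -0.42 in untreated replicate 1, from 0.31 to 0.46 in untreated replicate 2 and within 0.15 of 0 in TNC + vehicle.

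The same arrays stood out for other interferon genes. Of the 101 measured genes of 8 interferon lists that hold none of the members, 64.4% had their lowest untreated value in replicate 1, against 33.1% of all genes. Likewise 60.4% had their highest TNC + TLR4i value in replicate 2, against 28.5% of all genes, and 70.3% had their lowest TNC + vehicle value in replicate 1, against 34.7%. In TNC + TLR4i 56.4% had their lowest value in replicate 1, against 31.2% of all genes. Replicate 1 was thus most often the lowest array for these genes in each of the 3 groups. Leaving out untreated replicate 1 moved the members' difference between TNC + TLR4i and untreated to between -1.64 and -1.30, and leaving out untreated replicate 2 to between -1.16 and -0.93.

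Ifit1bl1 and Ifit1bl2 were the Ifit relatives measured. Ifit1bl1, an Ifit1-like gene of the same cluster, gave 7.24, 7.48 and 7.15 in TNC + TLR4i, against 9.95, 10.15 and 10.38 in TNC + vehicle and 7.93, 8.39 and 8.15 in untreated cells. It rose by 2.00 ± 0.12 in TNC + vehicle against untreated (limma adjusted p = 3.39e-07), fell by 2.87 ± 0.11 in TNC + TLR4i against TNC + vehicle (adjusted p = 3.72e-09) and fell by 0.87 ± 0.11 below untreated cells (adjusted p = 0.00392). Ifit1bl2, which shares the sequence before a start site with Ifit1, averaged 5.98 in TNC + TLR4i, 6.59 in TNC + vehicle and 6.09 in untreated cells on its brightest probe set. All 3 means lay below the array medians of 6.72 to 6.74, where signals are dim and differences may be compressed. On that probe set Ifit1bl2 was called lower in TNC + TLR4i than in TNC + vehicle, by -0.62 ± 0.07 (adjusted p = 5.75e-05). It was not called in TNC + vehicle against untreated, at 0.50 ± 0.07 (adjusted p = 0.000187), which is under the minimum fold. On its other probe set the 3 differences were 0.68 in TNC + vehicle against untreated, -0.85 in TNC + TLR4i against TNC + vehicle and -0.17 in TNC + TLR4i against untreated. That probe set was called in the first and second of these, so whether Ifit1bl2 was called higher in TNC + vehicle than in untreated depended on the probe set.

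The rest of the interferon pathway was taken by role, from lists written with earlier results of these data known. Over the 8 lists, 57 of the 101 measured genes rose and 2 fell in TNC + vehicle against untreated, with a median difference of 1.02, against 0.006 over all genes. With TLR4i against vehicle before TNC, 1 rose and 61 fell, with a median of -1.19, against 0.002. Relative to untreated cells, 0 rose and 18 fell in TNC + TLR4i in limma, with a median of -0.20, against 0.009. At p under 0.05 before adjustment, 1 was higher and 58 were lower. Over all genes, 3.74% were called higher and 4.05% lower in the first comparison. These shares were 4.25% and 4.05% in the second and 0.0605% and 0.198% in the third. The count of 18 changed with single arrays: it was 8 without TNC + TLR4i replicate 1, 10 without TNC + TLR4i replicate 3, 9 without untreated replicate 3 and 27 without untreated replicate 1.

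The ligands gave no call. Of 10 measured interferon genes, 0 were called in any of the 3 comparisons by limma. At an unadjusted p under 0.05, 3 were higher in TNC + vehicle than in untreated and 4 were lower in TNC + TLR4i than in TNC + vehicle, while in TNC + TLR4i against untreated 1 was higher and 1 lower. Ifnb1, which encodes interferon beta, gave 6.31, 6.30 and 6.31 in TNC + TLR4i, against 6.52, 6.51 and 6.62 in TNC + vehicle and 6.35, 6.45 and 6.31 in untreated cells. TNC + vehicle minus untreated was 0.18 ± 0.07 (adjusted p = 0.0807) and TNC + TLR4i minus TNC + vehicle was -0.24 ± 0.07 (adjusted p = 0.0183), under the minimum fold. All 9 values lay below the array medians of 6.72 to 6.74, and 6 h was the only time measured.

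Among receptors and kinases, Jak2, the kinase of several cytokine receptors, rose in TNC + vehicle against untreated by 1.31 ± 0.06 (adjusted p = 5.82e-08) and fell by 1.31 ± 0.06 in TNC + TLR4i against TNC + vehicle (adjusted p = 2.48e-08). Ifngr1, a chain of the interferon gamma receptor, fell by 0.79 ± 0.09 in TNC + vehicle (adjusted p = 4.29e-05) and was higher in TNC + TLR4i than in TNC + vehicle by 0.64 ± 0.07 (adjusted p = 1.41e-05). The other 7 of 9 were not called. Among these, the chains of the type I receptor had differences of opposite sign under the minimum fold: TNC + vehicle minus untreated was 0.42 ± 0.06 for Ifnar1 and -0.47 ± 0.07 for Ifnar2. Against untreated cells 0 of 9 were called in TNC + TLR4i, and 0 had an unadjusted p under 0.05 in limma.

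On the route from TLR4 to interferon, 3 of 8 measured genes rose in TNC + vehicle against untreated. These were Tank (0.98 ± 0.07, adjusted p = 1.01e-06), Ikbke (0.88 ± 0.07, adjusted p = 3e-06) and Tbk1 (0.59 ± 0.07, adjusted p = 4.08e-05), which encode an adaptor and kinases that act on IRF3. Ikbke (-1.34 ± 0.09), Tank (-1.22 ± 0.09) and Cd14 (-0.61 ± 0.07), whose product hands endotoxin to TLR4, fell in TNC + TLR4i against TNC + vehicle. Tlr4 averaged 11.31 in TNC + TLR4i, 10.92 in TNC + vehicle and 11.29 in untreated cells, and was not called, at -0.36 ± 0.07 in TNC + vehicle against untreated. Ticam1 (0.05 ± 0.07) and Irf3 (-0.11 ± 0.09) were not called either. Against untreated cells 0 of 8 were called by limma in TNC + TLR4i, where 0 were higher and 3 were lower at a p under 0.05 before adjustment. Of these Ikbke, at -0.46, had an adjusted p of 0.015 and was under the minimum fold.

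Of the STAT and IRF factors, 3 of 8 rose in TNC + vehicle against untreated and fell in TNC + TLR4i against TNC + vehicle. Stat2 gave 8.47, 8.61 and 8.31 in TNC + TLR4i, against 10.79, 10.93 and 10.96 in TNC + vehicle and 8.72, 9.06 and 9.18 in untreated cells. Its differences were 1.91 ± 0.11 (adjusted p = 1.6e-07) and -2.43 ± 0.09 (adjusted p = 1.89e-09), and -0.52 ± 0.11 in TNC + TLR4i against untreated (adjusted p = 0.0655). Irf7, which amplifies interferon production, gave 1.32 ± 0.13 and -1.19 ± 0.10, and Irf1, an activator of antiviral and inflammatory genes, gave 1.32 ± 0.07 and -1.60 ± 0.07. Irf4 fell in TNC + vehicle against untreated by 0.69 ± 0.07. Irf9, the DNA-binding partner of STAT2, was not called, at -0.01 ± 0.08 in TNC + vehicle against untreated. The inhibitor group gave 0 calls of 8 against untreated cells in limma, where 0 were higher and 4 were lower before adjustment, at a p under 0.05.

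Of 8 measured brakes on interferon signalling, 4 rose in TNC + vehicle against untreated and 4 fell in TNC + TLR4i against TNC + vehicle. Usp18, which blocks the type I interferon receptor from inside the cell, gave 9.18, 9.57 and 9.16 in TNC + TLR4i, against 12.28, 12.44 and 12.56 in TNC + vehicle and 9.95, 10.56 and 10.41 in untreated cells. It rose in TNC + vehicle by 2.12 ± 0.13 (adjusted p = 3.57e-07), fell by 3.12 ± 0.11 with the inhibitor (adjusted p = 1.81e-09) and fell by 1.00 ± 0.14 below untreated cells (adjusted p = 0.00678). Socs3 (1.77 ± 0.09 in TNC + vehicle against untreated, -1.99 ± 0.10 in TNC + TLR4i against TNC + vehicle) and Socs1 (1.02 ± 0.09 and -1.15 ± 0.12) encode inhibitors of JAK kinases. Unlike Usp18 they were not called against untreated cells, at -0.22 ± 0.10 for Socs3 and -0.13 ± 0.11 for Socs1.

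Of 10 sensors of foreign nucleic acid, 6 rose in TNC + vehicle against untreated and 6 fell in TNC + TLR4i against TNC + vehicle. Zbp1, a sensor of left-handed nucleic acid, rose by 2.11 ± 0.12, Ifih1, which encodes the RNA sensor MDA5, by 1.94 ± 0.10 and Tlr3, an endosomal receptor for double-stranded RNA, by 1.80 ± 0.08 in TNC + vehicle. Dhx58, which encodes the RNA helicase LGP2, fell by 2.52 ± 0.09 with the inhibitor, the most of the 10, and was the only sensor called below untreated cells, at -0.78 ± 0.10 (adjusted p = 0.00392). Ifih1 (-0.55, limma adjusted p = 0.0204) and Ddx58 (-0.34, adjusted p = 0.043) were also lower there, under the minimum fold. Before adjustment 0 of the 10 were higher and 7 lower than untreated at p under 0.05.

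Of the 47 genes measured in the list of other antiviral interferon-stimulated genes, which also holds Ifih1 from the sensors, 40 rose and 0 fell in TNC + vehicle against untreated, where limma gave 47 higher and 0 lower at p under 0.05 before adjustment. With the inhibitor, against TNC + vehicle, 43 fell and 0 rose, with 47 lower and 0 higher before adjustment. Against untreated cells 15 fell and 0 rose, with 40 lower and 0 higher before adjustment. The list's medians were 1.42, -1.93 and -0.45, and for the 5 members they were 2.55, -3.84 and -1.24. The members were chosen with these differences known, so their larger medians are not a result.

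In TNC + vehicle against untreated, 6 genes of this list had larger differences than the brightest probe set of any member: Cxcl10, Gbp2, Gbp3 and Iigp1, and also Mx1 (2.91 ± 0.14) and Isg20 (2.85 ± 0.15), which are named after their values were seen. Cxcl10, a chemokine for T cells, gave 7.88, 8.31 and 7.78 in TNC + TLR4i, against 12.65, 13.10 and 13.10 in TNC + vehicle and 8.52, 9.32 and 8.90 in untreated cells. Its differences were 4.04 ± 0.17, -4.96 ± 0.14 and -0.92 ± 0.17 (adjusted p = 0.0324 for the last). The guanylate-binding protein gene Gbp2 gave 3.56 ± 0.10 and -4.14 ± 0.06, with -0.58 ± 0.10 against untreated, under the minimum fold. Gbp3 gave 3.37 ± 0.10, -4.28 ± 0.09 and -0.92 ± 0.11 (adjusted p = 0.00392 for the last). Iigp1 gave 2.91 ± 0.12, -4.05 ± 0.10 and -1.14 ± 0.12 (adjusted p = 0.00148 for the last). In TNC + TLR4i against untreated Mx1 gave -0.85 ± 0.12 and Isg20 -0.29 ± 0.12, and all 6 lay less far below untreated cells than Ifit1, Ifit2 and Rsad2. These orders between genes were not tested.

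**Figure D4:**
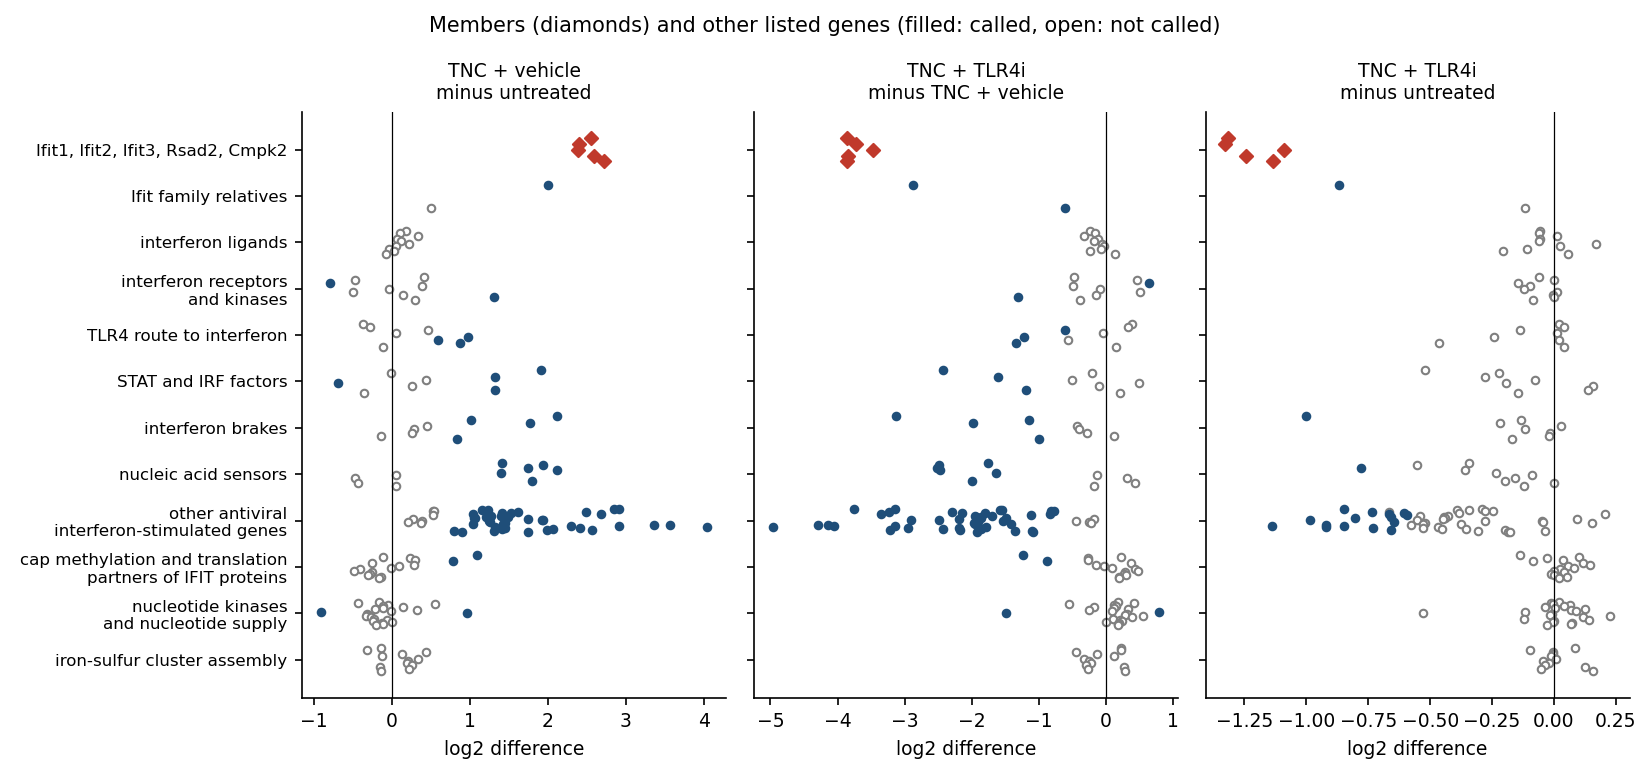
Log2 difference (x axis) of single genes in the 3 comparisons (panels), by role (y axis), with Ifit1, Ifit2, Ifit3, Rsad2 and Cmpk2 as diamonds and other genes as filled points where called and open points where not. The x axes have different ranges. The 10 ligands lie near 0 in every panel, and the 5 diamonds lie from -1.33 to -1.09 in the comparison with untreated cells.

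The 8 genes outside the members whose profile over the 9 arrays was most like the members' mean were Usp18 (r = 0.9993), Ifi47 (r = 0.9989), Eif2ak2 (r = 0.9985), Dhx58 (r = 0.9981), Xaf1 (r = 0.9977), Parp14 (r = 0.9976), Ifi202b (r = 0.9970) and Dtx3l (r = 0.9969). These values describe 9 arrays in 3 groups and rest mainly on the group means. Each member correlated with the mean of the other 4 at r = 0.9970 to 0.9991. A profile can be alike while its steps are smaller: TNC + vehicle minus untreated was 1.05 for Dtx3l and 2.12 for Usp18.

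Genes that work beside the members' products were listed too. In TNC + vehicle against untreated, 2 of 16 genes for cap methylation and cap-dependent translation were called, both higher, beside 3.74% of all genes called higher and 4.05% called lower. Of these, Cmtr1, which adds a cap methyl mark whose absence Ifit1 protein detects, rose in TNC + vehicle against untreated by 1.09 ± 0.08 (adjusted p = 8e-07) and fell by 1.23 ± 0.07 with the inhibitor. Eif4e, which binds the cap to start translation, rose by 0.79 ± 0.07 (adjusted p = 4.35e-06) and fell by 0.87 ± 0.07 with the inhibitor. The other 14 were not called, and 0 of 16 were called by limma in TNC + TLR4i against untreated, where 1 was higher and 1 lower at p under 0.05 before adjustment.

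Of 23 genes of nucleotide kinases and nucleotide supply, 1 rose and 1 fell in TNC + vehicle against untreated. These counts are near the shares over all genes, of which 3.74% were called higher and 4.05% lower. Dck, the cytosolic kinase of deoxycytidine, rose by 0.96 ± 0.09 (adjusted p = 8.7e-06) and fell by 1.49 ± 0.09 with the inhibitor. Tk2, a mitochondrial nucleoside kinase, fell by 0.90 ± 0.10 (adjusted p = 3.55e-05) and was higher with the inhibitor than in TNC + vehicle by 0.79 ± 0.08. Cmpk1, the cytosolic counterpart of Cmpk2, was not called, at -0.16 ± 0.07 in TNC + vehicle against untreated. Of the 23, 0 were called by limma in TNC + TLR4i against untreated, where 2 were higher and 1 lower at p under 0.05 before adjustment. The lower one was Dck, at -0.53 with an adjusted p of 0.0392, under the minimum fold. Rsad2 protein needs an iron-sulfur cluster. Of 12 genes for the assembly of such clusters, 0 were called in any comparison by limma. Over all genes, 0.0605% to 4.25% were called in a given direction of a comparison, and 0 of 12 is near these shares. At p under 0.05 before adjustment, 6 of the 12 were higher and 2 lower in TNC + vehicle than in untreated. In TNC + TLR4i 4 were higher and 6 lower than in TNC + vehicle, and 1 was higher and 0 lower than in untreated.

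The arrays carried the labelled cell type, with group means over 14 for Csf1r and Lyz2, and 9 macrophage markers averaged 12.1 to 12.4 on every array. The medians of the arrays were 6.72 to 6.74. The 3′ minus 5′ difference between control probe sets, which grows as RNA breaks down, was -0.35 to -0.26 for GAPDH on all arrays. For actin this difference was 0.30 to 0.37 in TNC + TLR4i, 0.21 to 0.22 in TNC + vehicle and 0.29 to 0.32 in untreated cells. The mean of 12 endothelial markers was 6.70 to 6.73 in TNC + TLR4i, 6.92 to 7.51 in TNC + vehicle, with 7.51 in replicate 1, and 6.74 to 6.77 in untreated cells. Kdr was called higher in TNC + vehicle than in untreated, and Kdr and Cdh5 lower in TNC + TLR4i than in TNC + vehicle. Within TNC + vehicle, Kdr was the only one of the 12 markers that was lowest in replicate 1, and all the others were highest there. Pecam1 gave 7.45 in that replicate against 6.43 and 6.42 in the other arrays of the group, and Esam 7.97 against 6.92 and 6.89. Vwf averaged lower in TNC + vehicle than in untreated, at -0.34 ± 0.12. TNC + vehicle replicate 1 was the lowest array of its group for all 5 members, and without it their difference between TNC + vehicle and untreated was 2.46 to 2.78. The mean of 7 neutrophil markers was 7.69 in untreated replicate 2, the array highest in the members, against 7.05 and 7.15 in the other untreated arrays, and ran from 7.08 to 7.28 in TNC + TLR4i and from 7.11 to 7.50 in TNC + vehicle. Of these 7 markers 0 were called by limma in any comparison, and before adjustment, at p under 0.05, 1 was higher and 1 lower in TNC + vehicle against untreated and 1 was lower in each of the other comparisons. The mean of 8 fibroblast markers was 8.89 to 9.35 on the 9 arrays, with group means of 13.16 to 13.28 for Col1a2 at the high end and 6.28 to 6.58 for Thy1 at the low end, and plasmacytoid dendritic cell markers averaged 7.21 to 7.34. The part of other cells and of RNA quality in the members' values was not tested.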

How the data were processed

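Total RNA was hybridized to Affymetrix mouse arrays. In Chipster the authors ran robust multiarray averaging (RMA) over all 9, and the log2 values they deposited are 1 per probe set for each array. RMA gives every array the same distribution, which would hide a change in total RNA, and leaves a floor under dim probe sets. The number of arrays limits the precision.

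The values table held 45101 probe sets, and 64 of them, the array controls, were dropped. The platform annotation gave 34945 of the others 1 gene, 932 several genes and 9160 none, and only the first were named. Where a gene had several probe sets, the brightest by its mean over 9 arrays was used. The comparisons used limma (version 3.58.1, lmFit and eBayes, two-sided, in R 4.3.3), on the 6 arrays of each pair of groups, with Benjamini-Hochberg adjustment over 45037 probe sets. The fit was tested on simulated data.

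The members and the 17 gene lists were chosen with earlier results of these data known. Named genes were all member probe sets and Ifit relatives, fixed pathway genes, up to 3 called genes with the largest change per list and comparison, and the 8 genes with the most similar profile. Igtp, Oasl1 and other genes appear in a figure because they were called. Promoter windows and loci came from RefSeq (GRCm38.p6). Alternatives changed the fit (1 model for all arrays, a replicate block, array weights, trend and robust eBayes), the values (median centring, cyclic loess), the probe sets (dim ones dropped, those with shared-probe suffixes dropped, their mean per gene), the thresholds, and the arrays, each left out in turn. A total of 0 columns of per-sample values were left unused.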

Additional observations from a re-analysis of the deposited data

How the results depend on the processing

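The members' differences kept their sign in 192 of 192 alternatives and moved by less than the spread between replicates (the pooled SD of both groups) in 189. Many of these could not have moved more. A fit over all arrays and a replicate block return the same difference by construction. So does averaging for a gene with a single probe set, and dropping suffixes where the probe set stays. Leaving out an array of a group cannot move a difference beyond that pooled SD. The 189 is therefore not a measure of how stable the differences are. They ran from 2.09 to 3.06 in TNC + vehicle against untreated, from -4.30 to -3.37 in TNC + TLR4i against TNC + vehicle and from -1.64 to -0.93 in TNC + TLR4i against untreated. The 3 that moved more came from averaging a gene's probe sets: 3.06 and -4.30 for Rsad2 and -3.53 for Cmpk2. In the first 2 comparisons the members were called under every alternative run, with no value for Cmpk2 where probe sets with shared-probe suffixes were dropped. In TNC + TLR4i against untreated 0 of 5 were called with trend and robust settings and with treat, which tests against a fold of 1.5, and 3 of 5 at an adjusted p under 0.01.

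Of 114 counts of calls, 94 stayed within 1.5 times. In TNC + vehicle against untreated, 1416 genes were called in all, 5116 with no minimum fold, 518 at 2-fold, 649 with treat and 1377 to 1543 with an array left out. In TNC + TLR4i against TNC + vehicle these counts were 1510, 5180, 564, 708 and 1445 to 1636. In TNC + TLR4i against untreated they were 47, 146, 8, 1 and 31 to 64, with 31 under trend and robust settings. The 18 interferon genes called there became 10 with trend and robust settings, 10 with the mean of probe sets, 10 at an adjusted p under 0.01, 1 at 2-fold, 0 with treat, and 8 to 27 with an array left out. The interferon counts with an array left out were 58 to 61 in TNC + vehicle against untreated and 62 to 63 in TNC + TLR4i against TNC + vehicle. The cause was not tested for the trend and robust settings or the mean of probe sets, while the stricter thresholds pass fewer genes by construction.

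Over all 45037 probe sets the deviations of same-numbered arrays correlated at -0.10 to 0.14. The members and the interferon genes were nonetheless most often lowest in replicate 1 in each of the 3 groups. The labels do not say whether the replicate numbers pair the samples, and these values do not settle it. With a replicate block, 1416, 1513 and 51 genes and 59, 62 and 19 interferon genes were called in the 3 comparisons.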
